A study of Homo sapiens with 3 samples.

Results

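Gene expression in hypoxic MNNG/HOS sarcospheres was compared with that in untreated sarcospheres of the same line, gene by gene across the array. MNNG/HOS is an established human osteosarcoma line, made from the HOS line by chemical transformation, and sarcospheres are the floating spheres that sarcoma cells form without serum. The hypoxia culture grew in serum-free DMEM/F12 under low oxygen, at a level not given in the sources used here, and its spheres were collected after 5 days. The TGF-beta1 culture had 4 ng/mL of the cytokine in the same medium for the same time, and the untreated culture had the medium alone. Each culture gave total RNA for 1 Cy3-labelled NimbleGen array, so there is 1 array per group, no replicate error and no test. All differences below describe these arrays and not the conditions. The genes compared were the 7820 of 14836 named genes whose brighter array of the pair reached that array's median gene value, a limit called the floor here.

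Cells sense oxygen through prolyl hydroxylases of the EGLN family, which mark the alpha subunits of hypoxia-inducible factor (HIF) for destruction by the VHL ubiquitin ligase. When oxygen is short the alpha subunits HIF-1alpha and HIF-2alpha persist, pair with ARNT and bind the core sequence ACGTG or GCGTG near genes of glucose use, vessel growth, collagen modification and mitochondrial turnover. In solid sarcomas and in spheroids such genes mark the cells that lie far from oxygen.

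The hypoxia and untreated arrays read much alike for most genes. At least 2-fold higher under hypoxia were 129 of 7820 genes (1.65%), and at least 2-fold lower were 77 (0.985%). Higher genes included the matricellular factors CCN1 and CCN2, the transcription factors MYC and EPAS1, the hormones STC1 and GDF15 and the lipase inhibitor ANGPTL4. Lower genes included the microfibril gene MFAP4, the arrestin-family genes TXNIP and ARRDC4 and the antiproliferative gene BTG2. A log2 difference is always hypoxia minus untreated. Its median over all 7820 genes was 0.05 (1.04-fold), its quartiles were -0.22 and 0.31, and 6699 genes (85.7%) lay within 1.5-fold. The split between directions depended on scaling: with each array centred on its median, 104 genes were higher and 96 lower.

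**Figure D1:**
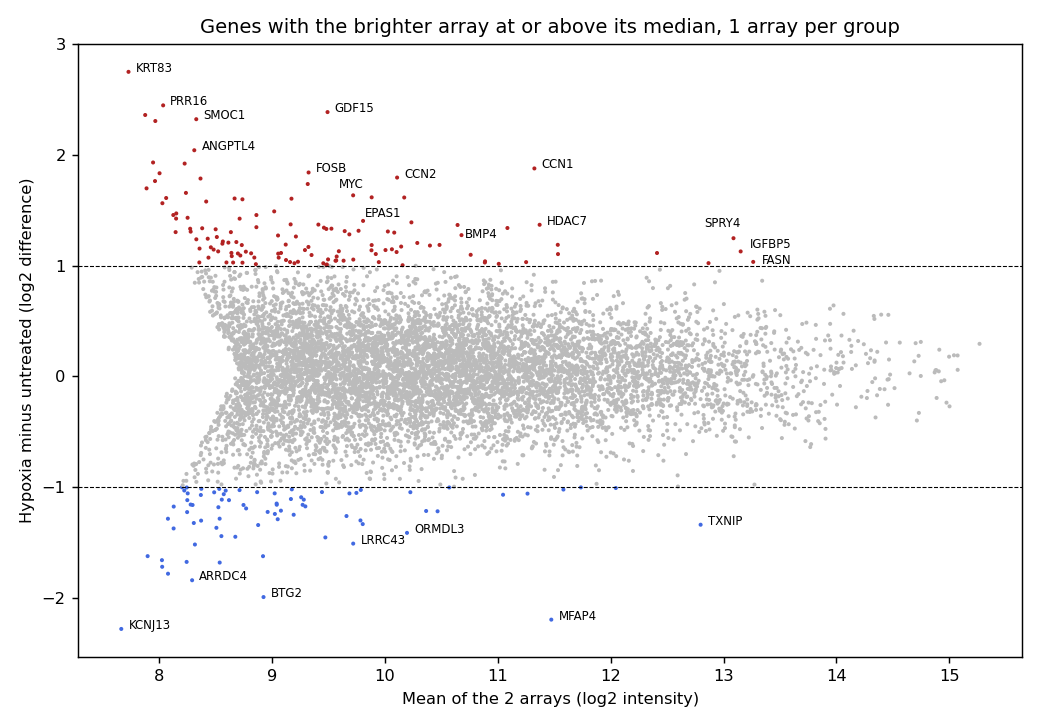
Hypoxia minus untreated as a log2 difference (y axis) against the mean log2 intensity of those arrays (x axis), 1 point per gene for the 7820 genes above the floor. Red points are the 129 genes at least 2-fold higher under hypoxia and blue points the 77 at least 2-fold lower; dashed lines mark 2-fold, and most coloured points lie at low intensity.

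Large differences were more common among dim genes. Of 7014 genes at or above the median on both arrays, 59 were at least 2-fold higher and 21 lower, which is 1.14% of them. Of the 806 genes that reached the median on 1 array alone, 70 were higher and 56 lower, or 15.6%. A gene of that second kind passed the floor because 1 array was bright, so its difference is partly set by the choice. The same holds for members of that kind in the list counts below, whether or not it is repeated there. Across 4 equal bins of brightness, dim to bright, with 1955 genes in each, the higher counts were 55, 40, 22 and 12 and the lower counts 42, 23, 5 and 7. At 3-fold, 25 genes were higher (0.32%) and 11 lower (0.141%). Genes just inside the 2-fold limit were FCHSD1, PNPLA7 and ZG16B at 1.004, 1.004 and 1.011, and MAP3K14, APBB1IP and CDC42EP1 lay just outside it at 0.999, 0.996 and 0.996. On the lower side ACVR2B, GPR146 and HEY1 lay just inside at -1.003, -1.004 and -1.005, and ROGDI, MDK and DAAM1 just outside at -0.998, -0.996 and -0.985.

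The table has no detection calls, so a set of genes that these cells should not use shows how dim readings behaved. Odorant receptors are made by sensory neurons of the nose, and none of the 126 measured reached the floor. Their median intensity was 64.3 under hypoxia and 66.5 in untreated spheres, and their highest was 304 under hypoxia and 368 in untreated spheres. Without the floor, 1 of them was at least 2-fold higher and 6 lower. The dimmer array read above every odorant receptor in 63 of the 129 higher genes and 36 of the 77 lower ones. For the rest, ANGPTL4, GDF15, DKK1, SMOC1, SIK1, FOSB, SPRY1, ID1, ID3, JAG2, AMOTL2, KRT83, BTG2, ARRDC4 and KCNJ13 among them, the dimmer reading lies within the odorant receptors' range, so the size and rank of the difference are not settled. Markers of blood, immune and endothelial cells were also dim. Of 11 blood and immune genes, 10 read at most 175 under hypoxia and 211 in untreated spheres. The 7 endothelial genes read at most 203 under hypoxia and 194 in untreated spheres. CD68, a lysosomal gene that cell lines also use, was the exception at 2182 under hypoxia, 2095 with TGF-beta1 and 1486 untreated. Epithelial keratins were not all dim. KRT8 read 8402 under hypoxia, 4193 with TGF-beta1 and 9761 untreated, and KRT18 read 4084, 2850 and 3604. Of 12 mesenchymal markers, 10 lay above the floor, none at least 1.5-fold higher and 1, COL1A1, lower. In whole-culture RNA, fewer cells of a kind and less RNA per cell cannot be told apart.

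Genes that HIF is known to induce were mostly brighter under hypoxia, and by small amounts. Of the 60 genes listed, 58 had a named feature (CA9 and EPO had none) and 46 lay above the floor. Among these 46 genes, 12 were at least 1.5-fold higher (26.1%), 34 lay within 1.5-fold and none was lower by that much. Of the 12, ANGPTL4, ALDOC and PFKFB3 reached the median on the hypoxia array alone, so their place among them is partly set by the floor. The background at 1.5-fold was 676 of all 7820 genes higher (8.64%) and 445 lower (5.69%). These shares are also the background for the 1.5-fold list counts below. The median of the 46 was 0.28 (1.22-fold), beside 0.05 for all genes, and it was 0.19 over all 58 measured genes. The TGF-beta1 array, set against the same untreated array, gave the 46 genes a median of 0.25. Brighter under hypoxia were 34 of the 46 and dimmer 12, where 55.4% of all genes were brighter and 44.6% dimmer.

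Secreted factors led the HIF-induced genes. ANGPTL4, a secreted inhibitor of lipoprotein lipase, read 645 under hypoxia, 54.8 with TGF-beta1 and 156 untreated, a log2 difference of 2.04. STC1, the glycoprotein hormone stanniocalcin, read 2019 under hypoxia, 449.6 with TGF-beta1 and 658 untreated (1.62). The vasodilator peptide gene ADM read 1424 under hypoxia, 539 with TGF-beta1 and 626 untreated (1.19). All 3 genes were brightest on the hypoxia array and dimmest on the TGF-beta1 array. VEGFA, the main growth factor of blood vessels, differed less, at 7492 under hypoxia, 5426 with TGF-beta1 and 5168 untreated (0.54). CXCR4, the receptor of the chemokine CXCL12, read 1624 under hypoxia, 139 with TGF-beta1 and 745 untreated (1.12). Its hypoxia value was thus the highest of the 3 arrays, as for the secreted factors. The small GTPase gene RAB20 read 837 under hypoxia, 253 with TGF-beta1 and 412 untreated (1.02). The bZIP factor gene MAFF read 1410.5 under hypoxia, 919 with TGF-beta1 and 689.7 untreated (1.03), and the clock-linked repressor BHLHE40 differed by 0.63.

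Genes of glucose use were divided. ALDOC, an aldolase of glycolysis, read 774 under hypoxia, 1209.5 with TGF-beta1 and 368 untreated (1.07), so it was brightest with TGF-beta1. PFKFB3 and PFKFB4 make the activator of phosphofructokinase, and they differed by 0.73 and 0.69. The triose phosphate isomerase gene TPI1 differed by 0.63 and the enolase gene ENO1 by 0.56. Several of the best known targets did not follow. LDHA, which turns pyruvate into lactate, read 2109.9 under hypoxia, 3253 with TGF-beta1 and 2035 untreated (0.05). PGK1, a phosphoglycerate kinase, read 3074 under hypoxia, 6623 with TGF-beta1 and 4244 untreated (-0.47). PDK1, a kinase that shuts pyruvate dehydrogenase, read 292 under hypoxia, 617 with TGF-beta1 and 416 untreated (-0.51). All 3 of these enzymes were brightest on the TGF-beta1 array. The glucose transporters SLC2A1 and SLC2A3 differed by 0.32 and -0.11. The wider glycolysis and lactate export list had 29 of 32 members above the floor, with 6 at least 1.5-fold higher, 1 lower and a median of 0.14. PFKM, the muscle form of phosphofructokinase, differed by 0.72 and has no place in the HIF list used here.

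**Figure D2:**
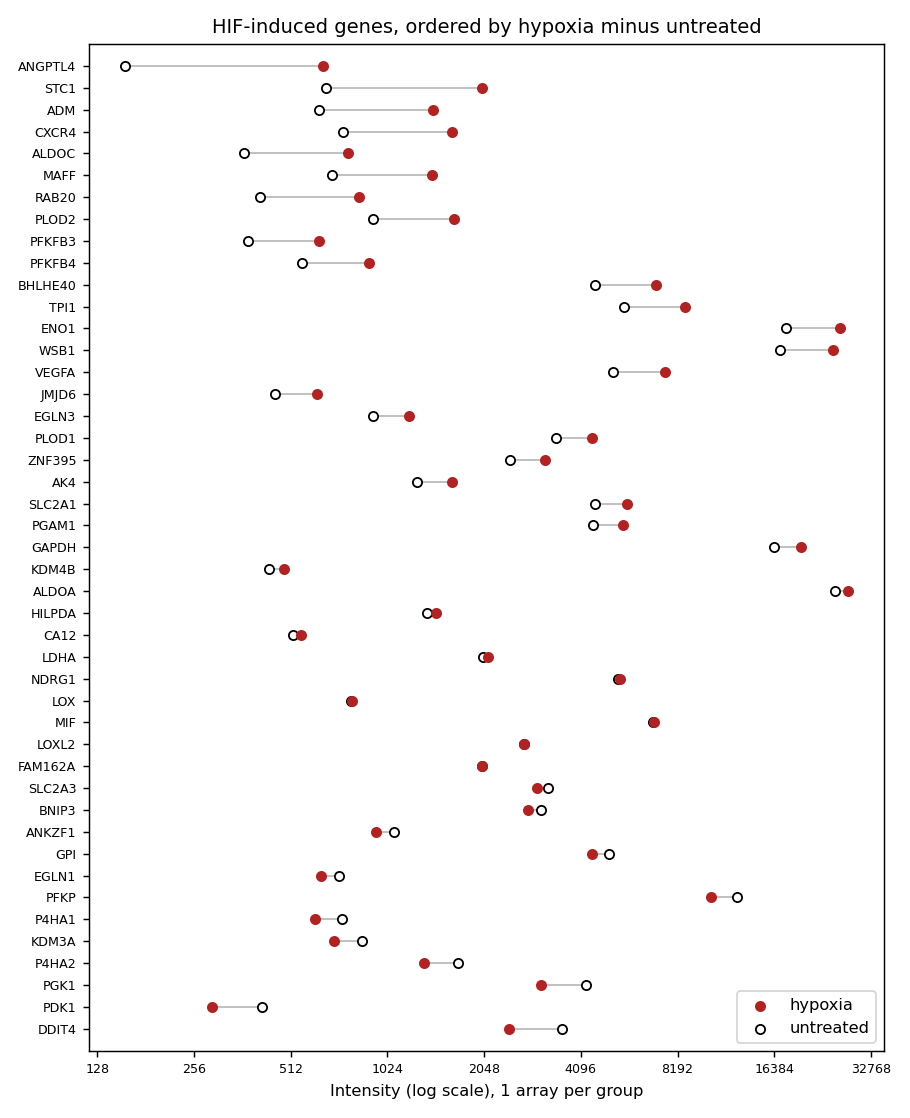
Intensity (x axis, log scale) of 45 of the 46 HIF-induced genes above the floor, ordered by hypoxia minus untreated, with filled points for the hypoxia array and open points for the untreated array. ANGPTL4 and STC1 lie furthest apart, 33 of the genes shown are brighter under hypoxia, and PGK1, PDK1 and DDIT4 at the bottom are dimmer.

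Collagen-modifying and mitochondrial targets were divided as well. PLOD2, a lysyl hydroxylase of collagen, read 1652 under hypoxia, 799 with TGF-beta1 and 923 untreated (0.84). Its relative PLOD1 differed by 0.37 and the lysyl oxidase LOX by 0.02. The prolyl hydroxylase subunits of collagen went the other way, with P4HA1 at -0.28 and P4HA2 at -0.35. BNIP3, which drives removal of mitochondria, read 2794 under hypoxia, 3821 with TGF-beta1 and 3079.9 untreated (-0.14). DDIT4, an inhibitor of mTORC1, had the lowest value of the HIF-induced list at -0.54, with 2450.2 under hypoxia, 3137 with TGF-beta1 and 3571 untreated. NDRG1, a stress gene often used to stain hypoxic tissue, differed by 0.02, and CA12, a carbonic anhydrase, by 0.09. These last values lie between the quartiles of all genes.

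Most members of the list of HIF subunits, oxygen sensors and related genes lay within 1.5-fold, and EPAS1, HIGD1A and CITED2 were higher. EPAS1, which codes for HIF-2alpha, read 1654 under hypoxia, 438 with TGF-beta1 and 539 untreated, a log2 difference of 1.62. HIF1A, which codes for HIF-1alpha, read 1619 under hypoxia, 1469 with TGF-beta1 and 1619.8 untreated as the mean of 2 features, whose differences had an SD of 0.81 and opposite signs. HIGD1A, a mitochondrial protein of the respiratory chain that the list also holds, read 644 under hypoxia, 322 with TGF-beta1 and 295 untreated (1.13). HIGD1A reached the median on the hypoxia array alone, and its untreated value lies within the odorant receptors' range. CITED2, which competes with HIF for the co-activator p300, read 2189 under hypoxia, 730.0 with TGF-beta1 and 1347 untreated (0.70). These 3 genes alone passed 1.5-fold among the 11 of 13 measured members above the floor. The hydroxylase EGLN3, itself a HIF target, differed by 0.37, EGLN2 by 0.21 and EGLN1 by -0.19. VHL differed by 0.20, the asparagine hydroxylase HIF1AN by -0.25, and the partner subunits ARNT and ARNT2 by -0.26 and -0.15.

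To show what HIF core letters look like near these genes, the RefSeq promoter window (GRCh38.p14, 250 bases before to 50 after the annotated start, written along the gene's strand) is given for 3 targets at least 2-fold higher and for LDHA, which stood level. Capitals mark ACGTG or GCGTG on either strand, so CACGT and CACGC are the same letters read on the opposite strand. CACGTG holds ACGTG on both strands and is counted once for each.
ANGPTL4: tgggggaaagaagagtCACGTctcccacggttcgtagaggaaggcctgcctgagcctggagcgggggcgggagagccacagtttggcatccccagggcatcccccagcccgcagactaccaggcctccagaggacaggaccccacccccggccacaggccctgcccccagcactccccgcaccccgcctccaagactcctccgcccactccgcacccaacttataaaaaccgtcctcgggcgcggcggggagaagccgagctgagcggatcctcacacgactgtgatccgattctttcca
ADM: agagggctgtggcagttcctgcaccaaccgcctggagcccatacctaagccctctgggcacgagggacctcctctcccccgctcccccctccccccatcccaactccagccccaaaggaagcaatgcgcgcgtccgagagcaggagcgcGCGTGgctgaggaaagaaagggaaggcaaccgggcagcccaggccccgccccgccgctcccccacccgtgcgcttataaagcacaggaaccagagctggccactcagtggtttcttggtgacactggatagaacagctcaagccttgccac
ALDOC: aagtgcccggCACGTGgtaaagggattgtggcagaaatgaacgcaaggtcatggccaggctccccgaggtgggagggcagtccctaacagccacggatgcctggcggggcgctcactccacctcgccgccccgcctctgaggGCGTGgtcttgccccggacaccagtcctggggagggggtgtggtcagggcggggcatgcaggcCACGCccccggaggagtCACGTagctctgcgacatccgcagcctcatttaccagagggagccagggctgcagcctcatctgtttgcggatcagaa
LDHA: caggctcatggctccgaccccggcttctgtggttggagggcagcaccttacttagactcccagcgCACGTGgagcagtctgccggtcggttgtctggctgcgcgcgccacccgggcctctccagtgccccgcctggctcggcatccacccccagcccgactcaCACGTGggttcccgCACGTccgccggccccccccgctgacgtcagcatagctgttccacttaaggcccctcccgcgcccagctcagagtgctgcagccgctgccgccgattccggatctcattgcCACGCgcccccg
The ANGPTL4 window (chr19:8363905-8364204, plus strand) holds 1 match, whose first base lies at position -234 from the start. The ADM window (chr11:10304823-10305122, plus strand) holds 1 match, at position -101. ALDOC (chr17:28576846-28577145, minus strand) has 5 strand-counted matches and LDHA (chr11:18394313-18394612, plus strand) has 6. Both of these counts take CACGTG once for each strand, so the 4 windows are not ranked by their matches here. Such letters are common, since ACGTG stands in 21.6% of all 27305 promoters in the table, GCGTG in 36.3% and either in 48.4%. A comparison of gene groups by motif is void here, because 35 of the 46 HIF-induced genes above the floor (76.1%), 100 of the 129 higher genes and 57 of the 77 lower genes have a window in the table. A match is a string of letters and not a bound site.

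Targets of the YAP and TEAD proteins, which report cell shape and contact, included CCN1 and CCN2, which had large differences and were bright on both arrays. CCN1, a secreted matricellular protein, read 4918 under hypoxia, 3941 with TGF-beta1 and 1337 untreated (1.88). Its relative CCN2, connective tissue growth factor, read 2057 under hypoxia, 1215 with TGF-beta1 and 592 untreated (1.80). AMOTL2, an angiomotin that binds YAP, reached the median on the hypoxia array alone and read 1164 under hypoxia, 475 with TGF-beta1 and 349 untreated (1.74). For each of these genes the untreated array was the dimmest of the 3. The whole list did not follow: of 19 genes above the floor (24 measured), 4 passed 1.5-fold higher and 3 lower, and the median was 0.14. F3, the coagulation starter tissue factor, was the other member past 1.5-fold higher, at 1.47. Like AMOTL2, F3 reached the median on the hypoxia array alone. The forkhead factor FOXF2 differed by -1.45 and the growth factor binding protein IGFBP3 by -0.87. Both reached the median on the untreated array alone, so the list's counts in both directions are partly set by the floor. YAP1 itself differed by 0.24 and its paralog WWTR1, which codes for TAZ, by 0.14. Genes of serum response factor and contraction, many of which respond to the same mechanical cues, had 16 of 20 members above the floor and none past 1.5-fold in either direction (median 0.07).

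The CCN2 window is shown because the TEAD letters GGAATG recur in it. It spans chr6:131951323-131951622 on the minus strand of GRCh38.p14 (RefSeq), with GGAATG in capitals and searched on both strands.
CCN2: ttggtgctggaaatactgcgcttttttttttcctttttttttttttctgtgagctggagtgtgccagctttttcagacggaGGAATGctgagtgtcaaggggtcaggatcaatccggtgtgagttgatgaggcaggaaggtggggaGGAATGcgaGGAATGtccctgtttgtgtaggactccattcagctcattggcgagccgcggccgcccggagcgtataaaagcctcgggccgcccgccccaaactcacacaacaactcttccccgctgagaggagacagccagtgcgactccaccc
It holds 3 copies of GGAATG, letters found in 14.05% of all 27305 promoters. CCN1, AMOTL2 and F3 are given by name only.

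A list of ERK-responsive genes, most of which feed back on MAP kinase signalling, had a median of 0.67, with 9 of 15 members (21 measured) at least 1.5-fold higher, 6 within and none lower. Restricted to members bright on both arrays the median was 0.40. SPRY4, an inhibitor of receptor tyrosine kinase signalling, read 13424 under hypoxia, 6408 with TGF-beta1 and 5650.4 untreated (1.25). SPRY1, of the same family, read 449 under hypoxia, 84.4 with TGF-beta1 and 152 untreated, with its 2 features at 2.28 and 0.85. EPHA2, an ephrin receptor and ERK target, read 8012 under hypoxia, 3293 with TGF-beta1 and 3700.3 untreated (1.11). All 3 stood at least 2-fold above the untreated array. EREG, the EGF receptor ligand epiregulin, differed by 1.07. The phosphatases DUSP4 and DUSP5, which switch ERK off, differed by 0.96 and 0.83, SPRED1 by 0.91, DUSP1 by 0.67 and SPRY2 by 0.62. The ERK phosphatase DUSP6 was the lowest member at -0.24, and the ETS factors ETV4 and ETV5 differed by -0.07 and 0.10.

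Immediate-early factors, genes switched on within minutes of a stimulus, numbered 21 above the floor (27 measured), of which 7 passed 1.5-fold higher and 1 lower, with a median of 0.44 (0.30 for those bright on both arrays). MYC, a growth-promoting transcription factor, read 1485 under hypoxia, 935 with TGF-beta1 and 478 untreated (1.64). FOSB, an AP-1 subunit, read 1214 under hypoxia, 470.3 with TGF-beta1 and 338 untreated (1.84). SIK1, a salt-inducible kinase, read 583 under hypoxia, 469 with TGF-beta1 and 154 untreated (1.92). All were brightest under hypoxia and dimmest untreated. NR4A1, an orphan nuclear receptor, read 1134 under hypoxia, 477 with TGF-beta1 and 450.4 untreated (1.33). ZFP36, which promotes decay of cytokine messages, differed by 1.11. Other AP-1 subunits lay within 1.5-fold, with FOSL1 at 0.52, JUN at 0.24, JUNB at 0.24 and FOS at 0.15, as did IER2 at 0.44, KLF6 at 0.48, EGR1 at 0.12 and IER3 at 0.09. BTG2, which slows division and is also a p53 target, was the single lower member at 243 under hypoxia, 173 with TGF-beta1 and 970.3 untreated (-2.00).

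SMAD proteins carry the TGF-beta signal to the nucleus, and 26 of 30 measured target genes lay above the floor. Past 1.5-fold, 9 of the 26 were higher (34.6%) and 2 lower (7.69%), 15 lay within, and the median was 0.38. Over all genes 8.64% were higher and 5.69% lower by that much. Of the 9, ID1, IL11 and SMAD6 reached the median on the hypoxia array alone, so their place among them is partly set by the floor. Set against the same untreated array, the TGF-beta1 array gave the 26 genes a median of -0.03. The list was thus not brighter as a whole with the cytokine itself, and SMAD activity was not tested. SMAD7 and SMAD6, inhibitory SMADs, differed by 0.84 and 0.70. THBS1, the matrix protein thrombospondin-1, read 1899 under hypoxia, 910.5 with TGF-beta1 and 1057 untreated (0.85). LTBP3, which holds latent TGF-beta in the matrix, differed by 0.79 and TGFB1 itself by 0.56. COL1A1 and BAMBI, a decoy receptor, were the lower members at -0.84 and -0.69.

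BMP4, a ligand of the BMP branch, read 2570.3 under hypoxia, 337 with TGF-beta1 and 996 untreated (1.37). Its classical targets are the ID genes, inhibitors of helix-loop-helix factors. ID3 read 591 under hypoxia, 199 with TGF-beta1 and 198 untreated (1.58), ID1 differed by 1.27 with its 2 features at 0.79 and 1.76, and ID2 by 0.65. The ligand and these 3 ID genes were all at least 1.5-fold higher, though ID1 and ID3 reached the median on the hypoxia array alone. ID4 lay below the floor at -0.18. For TGF-beta1 minus untreated, BMP4 differed by -1.56 and ID1, ID2 and ID3 by 0.54, 0.61 and 0.01. Whether the ligand acted on the ID genes was not tested. The BMP and ID list as a whole had 13 members above the floor, 5 higher by 1.5-fold or more and 1 lower, and its median was 0.48. That median was 0.10 for members bright on both arrays and 0.11 over all 23 measured. HEY1, a target that BMP shares with Notch, was the lower one at 1073 under hypoxia, 1684 with TGF-beta1 and 2154 untreated (-1.005).

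Notch and Wnt genes went in both directions. JAG2, a Notch ligand, read 1006 under hypoxia, 281 with TGF-beta1 and 331 untreated (1.61), and the receptor NOTCH1 differed by 0.69, while the target HEY1 was lower. Past 1.5-fold, 2 of 10 Notch genes above the floor (17 measured) were higher and 1 lower (median 0.13). DKK1, a secreted Wnt antagonist, read 556 under hypoxia, 242 with TGF-beta1 and 112 untreated (2.31), and the receptor FZD8 differed by 0.79. LEF1, a Wnt effector, read 1164 under hypoxia, 4732 with TGF-beta1 and 2108 untreated (-0.86), the lowest of the 3 arrays. Of 11 Wnt genes above the floor (26 measured), 3 were higher and 2 lower, with a median of -0.05.

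Cytokine, chemokine and NF-kB genes numbered 13 above the floor (24 measured), 5 of them past 1.5-fold higher and 1 lower, with a median of 0.43 (0.25 over all measured). LIF, the leukaemia inhibitory factor, read 3458 under hypoxia, 4095 with TGF-beta1 and 1365 untreated (1.34). IL11, interleukin 11, which is linked to bone turnover, read 468 under hypoxia, 478 with TGF-beta1 and 229 untreated (1.03). TNFRSF12A, the receptor of TWEAK, read 14012 under hypoxia, 12229 with TGF-beta1 and 7699 untreated (0.86). Both cytokines were brightest on the TGF-beta1 array, IL11 by a small margin. The angiogenic list, which shares ANGPTL4, ADM and VEGFA with the HIF list, had 10 members above the floor, and 3 of them (THBS1 the third) passed 1.5-fold higher and none lower (median 0.47). Interferon-induced genes had 22 of 35 members above the floor, with 1 higher, OASL at 0.66, and 1 lower, IFI44 at -0.69, and a median of 0.13.

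Stress-response genes were higher in part. GDF15, a circulating stress cytokine, read 1647 under hypoxia, 109 with TGF-beta1 and 315 untreated (2.39). DDIT3, the stress factor CHOP, read 1142 under hypoxia, 528 with TGF-beta1 and 521 untreated (1.13). PPP1R15A, which restores translation after stress by removing phosphate from eIF2alpha, read 4347 under hypoxia, 2128 with TGF-beta1 and 2021 untreated (1.10). The integrated stress and unfolded protein response list had 5 of 26 members above the floor (35 measured) at least 1.5-fold higher and none lower. That is 19.2% higher, beside 8.64% of all genes, and the list's median was 0.27. ATF4, the central factor of that response, differed by 0.51, and ASNS, one of its amino acid targets, by -0.43. HMOX1, heme oxygenase, read 1284 under hypoxia, 506 with TGF-beta1 and 528 untreated (1.28). The ferritin chains FTL and FTH1 differed by 0.60 and 0.56. Metallothioneins are small metal-binding proteins with near-identical copies, and all 8 above the floor were dimmer, between -0.77 and -0.13, but 2 alone, MT1G and MT1F, passed 1.5-fold. The antioxidant and metallothionein list had 3 members higher, 3 lower and a median of -0.13 over 25 above the floor.

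Heat-shock and chaperone genes had 18 members above the floor, with 2 higher, HSPH1 at 0.80 and HSF2 at 0.72, and 1 lower, DNAJB4 at -1.18. HSPH1 and HSF2 reached the median on the hypoxia array alone and DNAJB4 on the untreated array alone, so these counts are partly set by the floor. The list's median was 0.00, and its sign turned with scaling. BCL2-family and mitophagy genes had 2 of 12 above the floor higher, PMAIP1, the p53-linked death gene NOXA, at 0.97 and MCL1, a survival factor, at 0.95. The list of p53 targets and CDK inhibitors had none of 15 higher and 3 lower, BTG2, PHLDA3 at -0.76 and GADD45G at -0.68. All 3 reached the median on the untreated array alone, so their place as lower members is partly set by the floor. The list's median was -0.16, and it was 0.17 for members whose brighter array reached the 75th percentile.

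Sterol and fatty acid synthesis genes had a median above that of all genes. Of 30 members above the floor (32 measured), 6 were at least 1.5-fold higher (20%, beside 8.64% of all genes), 24 within and none lower. Of the 30, 26 were brighter under hypoxia, and the median was 0.35. FADS2, the delta-6 fatty acid desaturase, read 4469.7 under hypoxia, 3544 with TGF-beta1 and 1961 untreated (1.19). FASN, fatty acid synthase, read 14069 under hypoxia, 10809 with TGF-beta1 and 6869 untreated (1.03). DHCR7, the last step of cholesterol synthesis, read 3929.9 under hypoxia, 5213 with TGF-beta1 and 2172 untreated (0.86). The untreated array was the dimmest of the 3 for each of these enzymes. The stearoyl desaturase SCD differed by 0.66, IDI1 of the mevalonate pathway by 0.63 and SQLE, which makes squalene epoxide, by -0.24.

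Oxygen-using machinery of mitochondria stood near the median of all genes. The respiratory chain had 67 of 77 members above the floor, with 2 higher, NDUFB3 of complex I at 0.73 and UQCRC1 of complex III at 0.64, and 1 lower, COX6C of complex IV at -0.71 (median 0.06). Mitochondrial ribosomal proteins had 6 of 70 higher (8.57%) and 3 lower (4.29%), near the 8.64% and 5.69% of all genes. Their median was 0.06, and its sign turned with scaling. MRPL32 differed by 0.75, MRPL19 by -0.80 and MRPL1 by -0.71. Cytosolic ribosomal proteins had 79 of 81 above the floor, with 1 higher, 3 lower and a median of -0.04. RPS6, a small-subunit protein that growth signals phosphorylate, read 7057 under hypoxia, 13859 with TGF-beta1 and 13908 untreated (-0.98). Proteasome genes had none of 35 higher, 1 lower and a median of -0.02. Genes often used as references had 2 of 23 higher, CHMP2A at 0.61 and YWHAZ at 0.61, and a median of -0.02.

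In a group of alpha-arrestin genes, 3 were at least 2-fold lower. TXNIP and ARRDC4 are switched on by MondoA and MLX when glucose phosphates build up, and products of the group restrain glucose uptake or receptor traffic. TXNIP read 4471 under hypoxia, 2081 with TGF-beta1 and 11330.3 untreated (-1.34). ARRDC4 read 165 under hypoxia, 67.8 with TGF-beta1 and 594 untreated (-1.84). ARRDC3 read 354 under hypoxia, 248 with TGF-beta1 and 785 untreated (-1.15). In all 3 the untreated array was the brightest and the TGF-beta1 array the dimmest. The other arrestins ARRDC1 and ARRDC2 differed by -0.32 and -0.24, and the regulators MLXIP (MondoA) and MLX by 0.12 and 0.36. Of the 7 list members above the floor, 3 were lower and none higher (median -0.32). Of the 3, ARRDC4 and ARRDC3 reached the median on the untreated array alone, so their place among them is partly set by the floor.

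The ARRDC4 window is shown because MondoA and MLX bind paired E-boxes of the letters CACGTG. It spans chr15:97960453-97960752 on the plus strand of GRCh38.p14 (RefSeq), with CACGTG in capitals.
ARRDC4: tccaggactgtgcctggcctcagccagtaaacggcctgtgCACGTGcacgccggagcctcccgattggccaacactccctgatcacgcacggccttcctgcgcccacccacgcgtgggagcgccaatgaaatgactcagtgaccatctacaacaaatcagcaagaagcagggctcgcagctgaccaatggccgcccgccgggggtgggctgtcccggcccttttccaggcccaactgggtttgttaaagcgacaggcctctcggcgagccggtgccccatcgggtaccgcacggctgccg
It holds 1 CACGTG, at position -210. CACGTG reads the same on both strands, contains the ACGTG letters searched for HIF, and stands in 7.43% of all 27305 promoters.

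**Figure D3:**
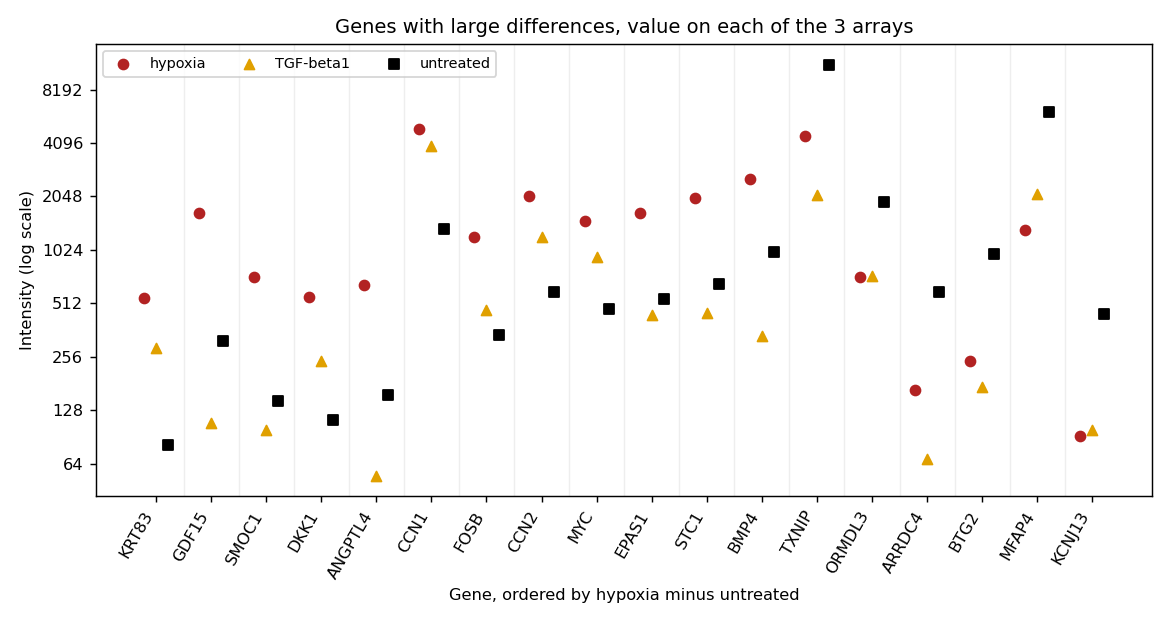
Intensity (y axis, log scale) of 18 genes with large differences, ordered by hypoxia minus untreated, as a red circle for the hypoxia array, an orange triangle for the TGF-beta1 array and a black square for the untreated array. CCN1, CCN2 and MYC have the untreated array at the bottom, GDF15, ANGPTL4 and BMP4 have the TGF-beta1 array at the bottom, and TXNIP, ORMDL3 and KCNJ13 have the untreated array at the top.

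Cell-division genes differed little. Of 30 cell cycle and mitosis genes above the floor (36 measured), 4 were at least 1.5-fold higher and none lower, with a median of 0.18. The share higher was 13.3%, beside 8.64% of all genes. CENPA, the histone of centromeres, differed by 0.69, CDK4, the kinase of early G1, by 0.63 and its partner cyclin CCND1 by 0.61. The proliferation antigen MKI67 differed by 0.33 and the mitotic kinase CDK1 by -0.11. DNA replication genes had none of 30 higher and 1 lower, the helicase subunit MCM4 at -0.71, and a median of 0.04 whose sign turned with scaling.

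Replication-dependent histones were mostly dimmer. None of 42 above the floor (63 measured) was at least 1.5-fold higher and 12 were lower (28.6%, beside 5.69% of all genes). Of the 42, 33 were dimmer and 9 brighter, with a median of -0.32. H2AC25, an H2A gene, read 2979.6 under hypoxia, 6361 with TGF-beta1 and 6001 untreated (-1.01). H3C4 read 294 under hypoxia, 327 with TGF-beta1 and 599 untreated (-1.03), and H3C7 differed by -0.88. Histone genes of a type are nearly identical in sequence, so signal can be shared between them and the count of genes is not a count of separate readings.

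HOX genes, which set position along the body axis and are kept on in mesenchymal lines, were also dimmer. None of 17 above the floor (34 measured) was at least 1.5-fold higher and 7 were lower (41.2%, beside 5.69% of all genes). Of the 17, 15 were dimmer and 2 brighter, with a median of -0.36. HOXB5 read 865 under hypoxia, 442 with TGF-beta1 and 2011 untreated (-1.22). HOXC6 read 2149 under hypoxia, 2210.4 with TGF-beta1 and 4370.0 untreated (-1.02). HOXC8 read 814 under hypoxia, 959 with TGF-beta1 and 1548 untreated (-0.93). The untreated array was the brightest for each. The others past 1.5-fold were HOXD9 at -0.86, HOXC10 at -0.80, HOXC9 at -0.61 and HOXA10 at -0.60. HOXB7 was the highest member at 0.35.

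Matrix gene lists had medians near that of all genes and held single large differences. MFAP4, a glycoprotein of elastic microfibrils, had the largest lower value of genes bright on both arrays, at 1327 under hypoxia, 2121 with TGF-beta1 and 6098 untreated (-2.20). SMOC1, a SPARC-related basement membrane protein, was in the opposite direction at 719 under hypoxia, 98.7 with TGF-beta1 and 144 untreated (2.32). LAMA5, a laminin chain, differed by 0.85. Of 26 matrix glycoprotein genes above the floor, 5 were higher and 2 lower, with a median of 0.04 whose sign turned with scaling. Among collagens, COL3A1 read 379 under hypoxia, 371 with TGF-beta1 and 902 untreated (-1.25), and COL1A1 read 959 under hypoxia, 1722 with TGF-beta1 and 1715 untreated (-0.84). Of 17 collagen genes above the floor, 1 was higher and 3 lower (median -0.07), the third being COL26A1 at -1.23. COL3A1 and COL26A1 reached the median on the untreated array alone, so their place as lower members is partly set by the floor. Over all 33 measured collagens the median was 0.03. MMP1, interstitial collagenase, read 1420.2 under hypoxia, 1035 with TGF-beta1 and 660.0 untreated (1.11). PLAUR, the urokinase receptor, differed by 0.77 and TIMP1, an inhibitor of metalloproteinases, by 0.61, and these 3 were the matrix enzyme genes past 1.5-fold higher among 15 above the floor, with none lower and a median of 0.02 whose sign turned with scaling.

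Identity markers of bone, mesenchyme and stem cells differed in few members. In the osteoblast list 1 of 11 above the floor was higher, SPP1, which codes for osteopontin, at 0.66, and 1 lower, COL1A1. In the mesenchymal and EMT list 2 of 14 were higher, the repressor SNAI1 at 0.94 and the calcium-binding protein S100A4 at 0.85, and LEF1 was lower. In the pluripotency and stem-cell list 3 of 12 were higher, MYC, CXCR4 and KLF4 at 0.61, and none lower. Their median was 0.35, and 0.20 over all 22 measured. Keratin and desmosome genes had 14 of 44 members above the floor, 3 of them higher and 3 lower. KRT80 read 2161 under hypoxia, 871 with TGF-beta1 and 949 untreated (1.19). KRT83, a hair keratin with near-identical paralogs, passed the floor through the hypoxia array alone, at 550.4 under hypoxia, 286 with TGF-beta1 and 81.7 untreated (2.75), and KRT81 differed by 0.98.

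**Figure D4:**
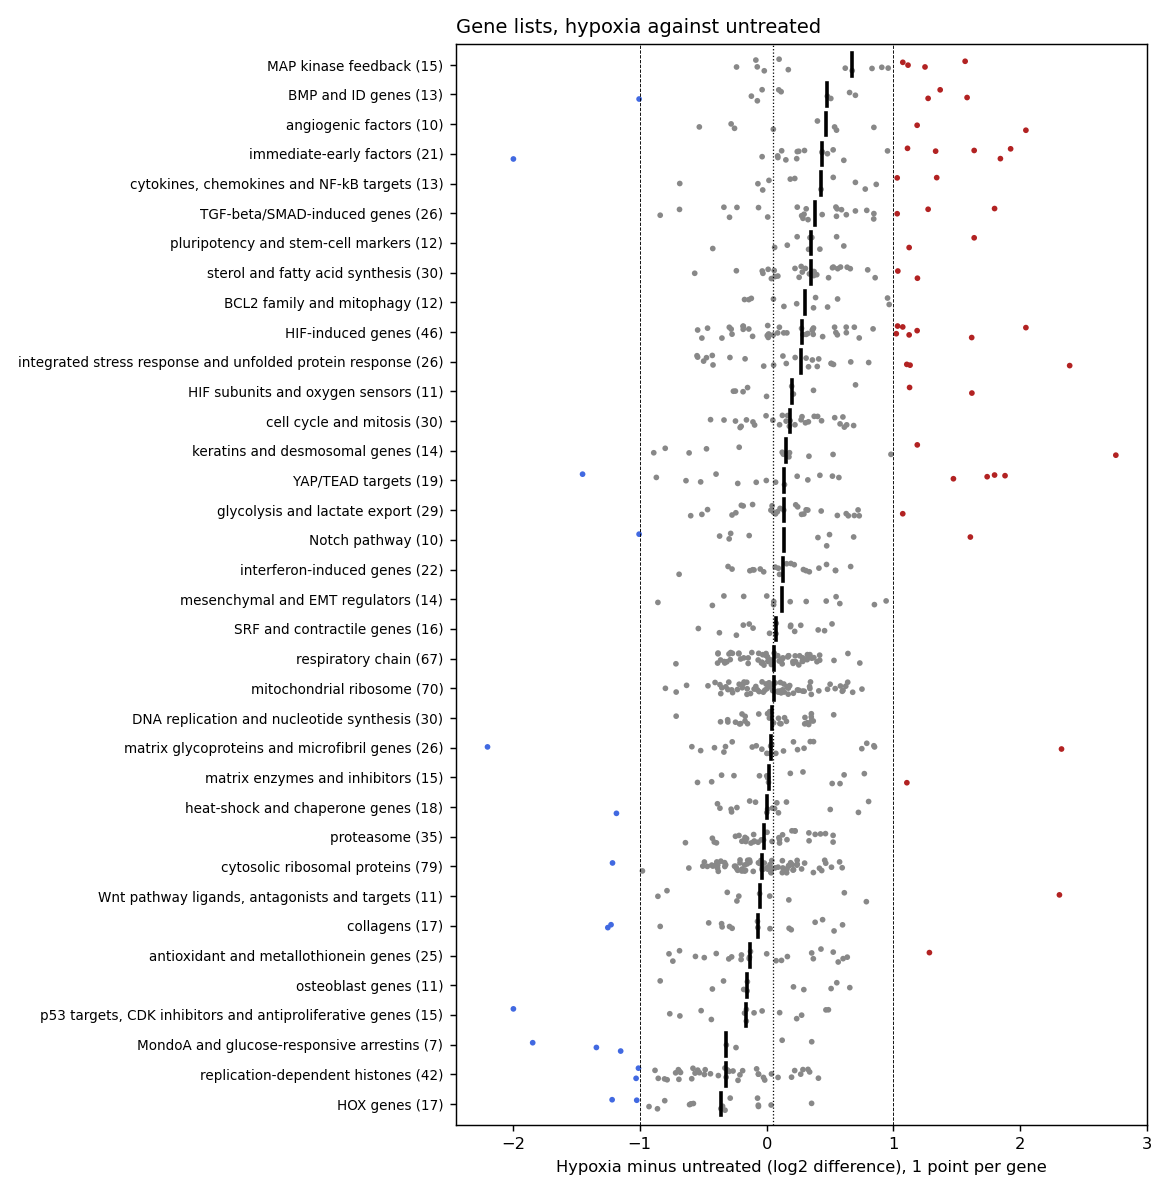
Hypoxia minus untreated as a log2 difference (x axis) for each gene above the floor, in 36 gene lists ordered by their median (thick bar), with the number of genes in parentheses. Dashed lines mark 2-fold and the dotted line the median of all 7820 genes, 0.05; MAP kinase feedback lies furthest right at 0.67, and HOX genes and replication-dependent histones furthest left at -0.36 and -0.32.

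Among genes bright on both arrays, the largest higher values outside these lists belonged to genes of varied function. SGSH, a lysosomal enzyme that degrades heparan sulfate, read 1457 under hypoxia, 696 with TGF-beta1 and 550.3 untreated (1.40). SYDE1, a GTPase-activating protein, read 1952 under hypoxia, 1240.0 with TGF-beta1 and 744 untreated (1.39). HDAC7, a class IIa histone deacetylase, read 4257 under hypoxia, 2514 with TGF-beta1 and 1647 untreated (1.37). The untreated array was the dimmest of the 3 for each of them. MAPK8IP3, a JNK scaffold, differed by 1.37, CCDC85B by 1.34 and the kinesin KIFC3 by 1.33. IGFBP5, a growth factor binding protein abundant in bone, read 13459 under hypoxia, 3152 with TGF-beta1 and 6155 untreated (1.13). Among genes bright on 1 array alone were PRR16 at 2.45, CPTP, a carrier of ceramide-1-phosphate, at 2.36, and FAM199X at 1.93. Their untreated values were 112, 104 and 126.

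The largest lower values outside the lists were likewise mixed. ORMDL3, which restrains sphingolipid synthesis, read 718 under hypoxia, 733 with TGF-beta1 and 1915 untreated (-1.42). ITPKB, an inositol trisphosphate kinase, read 562 under hypoxia, 599.7 with TGF-beta1 and 1419.8 untreated (-1.34). FOLR1, a folate receptor, read 522 under hypoxia, 517 with TGF-beta1 and 1253 untreated (-1.26), and its 4 features lay between -1.35 and -1.15. For these genes the hypoxia and TGF-beta1 arrays read nearly alike, and both differences use the same untreated array. ROR1, a receptor of Wnt5a, read 927 under hypoxia, 656 with TGF-beta1 and 2159.9 untreated (-1.22). AOAH, which inactivates bacterial lipopolysaccharide, differed by -1.46, LRRC43 by -1.51 and TMEM260 by -1.30. MOCS2, of molybdenum cofactor synthesis, differed by -1.05, C12orf57 by -1.06 and the hair keratin-associated gene KRTAP1-3 by -1.06. Genes bright on the untreated array alone included KCNJ13, a potassium channel, at 91.9 under hypoxia, 99.3 with TGF-beta1 and 448 untreated (-2.28). The uridylyl transferase TUT7 differed by -1.68, the zinc-finger genes ZNF718 and ZNF713 by -1.68 and -1.66, the sperm acrosome gene SPACA5 by -1.78 and the orphan receptor GPR50 by -1.72.

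Genes with more than 1 feature give the only internal repeat on these arrays, and features of a gene share the culture, the RNA and the hybridisation. Of 689 such genes above the floor, the SD of the difference between features had a median of 0.23 and a 90th percentile of 0.53, and in 372 all features had the same sign. Among genes past 2-fold, 5 higher and 2 lower ones had several features, and none of the 7 had features of opposite sign. A mean past 2-fold makes opposite signs unlikely in advance, so that agreement does not bear on the calls. Of 11431 unnamed features above the median, 199 were at least 2-fold higher (1.74%) and 166 lower (1.45%).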

How the data were processed

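Total RNA of 3 MNNG/HOS sarcosphere cultures (hypoxia, TGF-beta1, untreated) was hybridised to 1-colour NimbleGen arrays, per the labels, with 1 array per culture. The values the authors deposited are linear intensity readings of 38572 transcript features, per the file headers. How background, probe summary and normalization were handled is not stated in the labels or headers. The median intensity was 395 on the hypoxia, 363 on the TGF-beta1 and 383 on the untreated array, so the columns were used as normalized. The lowest value was 50.0, so a fold from a dim gene may be understated.

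Features were named from the platform annotation with symbols updated (15623) or by a RefSeq accession match (593), and 22356 stayed unnamed. A gene's value was the mean log2 over its features, with no pseudocount. A gene was compared where its brighter array of the pair reached that array's median gene value, 427 for hypoxia and 409.6 for untreated. Thresholds were 2-fold for single genes and 1.5-fold for lists. With 1 array per group no test was run and the number of arrays limits the precision. The members, the gene lists and the thresholds were chosen with earlier results of these data known.

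Named genes are those whose features share a sign and that are the 14 largest differences each way with both arrays at or above the median, the 8 largest each way with 1 array there, the 3 largest per list, every HIF-induced or oxygen-sensing gene, or the 3 nearest to the threshold on each side. KRT8, KRT18, HIF1A, IGFBP5, F3, FOXF2, IGFBP3, YAP1, WWTR1, EREG, DUSP1, DUSP4, DUSP5, DUSP6, SPRED1, SPRY2, ETV4, ETV5, FOS, JUN, JUNB, EGR1, IER2, IER3, FOSL1, KLF6, ZFP36, SMAD6, SMAD7, LTBP3, TGFB1, BAMBI, ID2, ID4, ATF4, ASNS, FTL, FTH1, MT1F, SCD, IDI1, SQLE, ARRDC1, ARRDC2, MLXIP, MLX, MKI67, CDK1, HOXD9, HOXC10, HOXC9, HOXA10 and HOXB7 values were chosen after being seen, and so were the genes that close the text. A few genes that the rule names are not reported here. Alternatives were other array scalings, other summaries of features, other filters and 50 added to each intensity. The steps were tested on simulated data. Python 3.11.15, pandas 2.3.3, numpy 2.4.6, scipy 1.17.1 and statsmodels 0.14.6 were used. Promoter windows are RefSeq's (GRCh38.p14), 300 bases each, and no source used here names the build of the array.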

Additional observations from a re-analysis of the deposited data

How the results depend on the processing

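The counts of genes past 2-fold depended on the filter on dim values more than on scaling. With no filter 418 genes were higher and 328 lower. With the brighter array at or above its 75th percentile 37 were higher and 15 lower, and with both arrays at or above their median 59 and 21. With 50 added to every intensity 98 were higher and 51 lower. Median centring gave 104 higher and 96 lower (52% of calls higher, against 62.6% as reported), loess centring 107 and 93, and quantile normalization 124 and 94. The 77 lower genes remained under all 3 scalings, but each scaling moved the median difference down from 0.05, which favours that outcome. That median was -0.01 with median centring, 0.02 with quantile normalization and 0.00 with loess centring. Their staying is therefore no sign that the lower calls are firmer than the higher ones. The median of HIF-induced genes ranged between 0.19 and 0.29. Of 81 named genes past 2-fold, 74 kept that call under median centring and 36 under the 75th percentile filter, and none changed sign under any alternative. Of 38 list medians, 5 changed sign under a scaling, none larger than 0.06 in size. No paired analysis was possible because each group has 1 array. With 1 array per group, differences between cultures, hybridisations and conditions cannot be told apart, and values near the lowest intensity have no settled order.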

Other observations

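Several genes past 2-fold stand outside the lists described above, and all were picked after their values were seen. Among higher genes, IGFBP1, a secreted binding protein of insulin-like growth factors, read 626 under hypoxia, 205 with TGF-beta1 and 270.0 untreated (1.21). ACKR3, a scavenger receptor that shares the ligand CXCL12 with CXCR4, read 489 under hypoxia, 175 with TGF-beta1 and 219.8 untreated (1.15). BCL6, a transcriptional repressor, read 494 under hypoxia, 155 with TGF-beta1 and 209 untreated (1.24). The TGF-beta1 array was the dimmest for all 3. The small GTPase RHOB differed by 1.18, the nuclear factor CSRNP1 by 1.61, the proton pump subunit TCIRG1 by 1.02 and the organic anion transporter ABCC3 by 1.03. Among lower genes, TGFB3, a TGF-beta ligand, read 287 under hypoxia, 223 with TGF-beta1 and 643 untreated (-1.16). The transcription factor MYB differed by -1.16, the replication checkpoint gene CLSPN by -1.29 and the clock factor BMAL1 by -1.23.

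By promoter base composition, the median log2 difference was 0.00, 0.04, 0.07 and 0.09 in 4 bins of GC content, low to high, among the 6503 of 7820 genes with a promoter window.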
